A study of Homo sapiens with 17 samples.

Results

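The kinase-dependent response to LKB1 was measured in A549 cells, by setting 3 arrays of cells that carried wild-type LKB1 against 3 arrays of cells that carried the kinase-dead mutant K78I. These 6 of the 17 arrays in the series were chosen by their titles, and the comparison ran over 17958 annotated genes. A549 is a human lung adenocarcinoma line without functional LKB1. Further arrays give reference levels: 3 arrays of A549 cells with the empty pBABE retrovirus, 3 arrays of each LKB1 construct in H2122, another LKB1-deficient lung adenocarcinoma line, and 2 H2122 arrays with empty pBABE. Every culture, controls included, carried a stable pBABE retroviral insert and had been kept in 1.0 µg/mL puromycin for 2 weeks, grown in 5% serum and harvested in logarithmic growth. Arrays are numbered by replicate within each group. The labels do not say whether replicates were separate infections or cultures, and the spread behind each p-value may therefore be technical. Values are log2 levels, in which 1 unit is a 2-fold change, and differences are LKB1 minus K78I unless another pair is named.

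LKB1, encoded by STK11, is a serine/threonine kinase and tumour suppressor that is often lost in lung adenocarcinoma. Bound to the pseudokinase STRAD and the scaffold MO25, it phosphorylates the activation loop of AMPK and of a family of related kinases that includes the SIK, NUAK, MARK and BRSK enzymes. Active SIKs phosphorylate the CRTC coactivators and hold them in the cytoplasm. When CRTCs enter the nucleus they join CREB on cyclic AMP response elements. K78I alters the lysine that the kinase needs for catalysis. By design, a comparison with K78I therefore asks what depends on catalytic activity in cells that carry an LKB1 transcript in either case. The STK11 level of K78I replicate 2 departed from this design.

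STK11 had levels of 9.42, 10.23 and 9.62 on the LKB1 arrays, of 10.54, 7.14 and 10.42 on the K78I arrays, and of 6.88, 7.38 and 10.52 on the pBABE arrays, each in the order of replicates 1, 2 and 3. The library labelled K78I replicate 2 was thus near the level of pBABE replicates 1 and 2, and the library labelled pBABE replicate 3 was near the level of the other K78I arrays. Whether these libraries were exchanged was not tested, and the titles were followed. The groups averaged 9.76 ± 0.42 with LKB1 and 9.36 ± 1.93 with K78I (SD, n = 3 each), a difference of 0.40 ± 0.84 (SE, limma adjusted p = 0.867), and an exact two-sided permutation test gave p = 1, where 0.1 is the smallest it can give. Without K78I replicate 2 the difference was −0.72, so the transcript was not higher with wild-type LKB1 on the remaining arrays (adjusted p = 0.771). In H2122 STK11 averaged 11.27 ± 0.08 with LKB1 and 11.28 ± 0.03 with K78I (SD, n = 3 each).

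K78I replicate 2 also differed from its group beyond STK11. Its pairs with the other K78I arrays had SDs of 0.607 and 0.541 across genes, against 0.339 for the pair without it and 0.229 to 0.326 for pairs of LKB1 arrays. Its mean over 37 cell cycle genes was 8.59, while the LKB1 arrays had 9.46, 9.71 and 9.60 and the other K78I arrays 9.67 and 9.44. Among genes called lower with LKB1, this array lay a median of 0.37 above the other K78I arrays, and among genes called higher it lay a median of 0.38 below them (−0.38), with −0.002 over all genes. This array took part in choosing the called genes, so these medians are a description. Its part in the results was not tested beyond leaving it out. Counts of list members are also given without it where they then changed. A called gene held its call when any 1 of the 9 A549 arrays was left out, unless the arrays that ended the call are named.

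**Figure D1:**
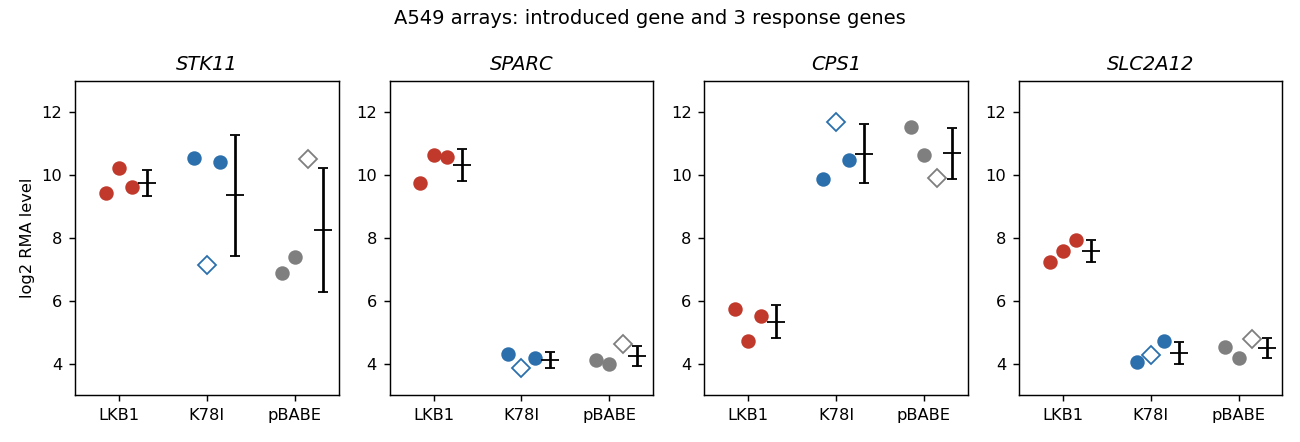
Log2 level of STK11, SPARC, CPS1 and SLC2A12 on each A549 array, with replicates 1, 2 and 3 from left to right within a group and the group mean ± SD beside them (n = 3). Open diamonds mark K78I replicate 2 and pBABE replicate 3, whose STK11 levels of 7.14 and 10.52 go against their labels. For the other 3 genes they lie near the remaining K78I and pBABE arrays. The K78I and pBABE levels of these 3 genes overlapped, so they cannot check these labels.

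SPARC, a secreted glycoprotein that binds collagen, had 9.75, 10.65 and 10.59 on the LKB1 arrays, against 4.31, 3.85 and 4.18 on the K78I arrays and 4.12, 3.997 and 4.61 on the pBABE arrays. Every LKB1 array lay over 5 units above every K78I array, and the fitted difference was 6.22 ± 0.22 (SE, adjusted p = 5.16e-10). CPS1, the mitochondrial enzyme that makes carbamoyl phosphate for the urea cycle, had 5.74, 4.73 and 5.51 with LKB1, against 9.88, 11.71 and 10.48 with K78I and 11.52, 10.65 and 9.91 with pBABE. It fell by 5.36 ± 0.53 (SE, adjusted p = 3.01e-05), and the groups did not overlap. The hexose transporter SLC2A12 had 7.22, 7.60 and 7.93 with LKB1, against 4.04, 4.27 and 4.73 with K78I and 4.52, 4.17 and 4.79 with pBABE, a rise of 3.24 ± 0.28 (SE, adjusted p = 8.74e-06). Without K78I replicate 2 the differences were 6.08, −4.85 and 3.20 for SPARC, CPS1 and SLC2A12.

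At a limma adjusted p under 0.05, 943 of all genes (5.25%) differed, of which 639 were higher (3.56%) and 304 lower (1.69%) with LKB1. Counts of list members below are to be read beside these shares. At least 2-fold changes numbered 296 higher and 151 lower. Median centring of the arrays gave 494 higher and 396 lower calls and put the median of all genes at −0.083, beside −0.007 in the deposited scaling, so the excess of rises over falls depended on the scaling. Leaving out K78I replicate 2 gave 568 calls, 399 higher (2.22%) and 169 lower (0.941%). Of the 943 genes, 506 were called in that fit too, all with the same sign, and 62 were called in it alone. Calls numbered 421 when LKB1 replicate 3 was left out, 585 when LKB1 replicate 1 was, and 1625 when K78I replicate 1 was.

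Among called genes whose LKB1 and K78I arrays did not overlap, the largest rises after SPARC were MDGA1, a membrane-anchored adhesion protein known from neurons (4.72 ± 0.40), the collagen-binding integrin subunit ITGA11 (4.17 ± 0.18), the secreted IGFBP7 (4.01 ± 0.30) and the type I collagen chain COL1A1 (3.98 ± 0.43, SE). They were followed by SPOCK1 (3.73), CCDC80 (3.62), NIPAL4 (3.39), HAPLN3 (3.24), SLC2A12 (3.24), AFAP1L2 (3.18), HOXD10 (3.12), LOXL2 (3.12) and RASGRP1 (3.11). By the same rule the largest falls after CPS1 were neurotensin (NTS, −5.17 ± 0.58), the disulfide isomerase AGR2 (−5.13 ± 0.66), the protease inhibitor SLPI (−4.22), the GABA receptor subunit GABRA2 (−4.21), the fibrinogen chain FGA (−3.81) and the adhesion protein CNTN1 (−3.66). Then came INSL4 and SCEL (−3.57 each), PPARGC1A (−3.43), EGR1 (−3.38), DEFB1 (−3.36), ANKRD62 (−3.27) and PDE3A (−3.24). PPARGC1A and EGR1 rested most on single arrays. The call of PPARGC1A was lost without LKB1 array 1, 2 or 3, K78I array 2 or pBABE array 2 (adjusted p of 0.0865, 0.116, 0.131, 0.18 and 0.0558), and that of EGR1 without LKB1 array 1, 2 or 3 or K78I array 2 or 3 (0.0542, 0.0701, 0.119, 0.123 and 0.0612). MDGA1 had 9.43, 9.97 and 9.77 with LKB1 and 5.28, 4.13 and 5.59 with K78I. For AGR2 the levels were 6.19, 4.85 and 5.53 with LKB1 and 9.54, 12.17 and 10.23 with K78I, the highest again on K78I replicate 2.

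**Figure D2:**
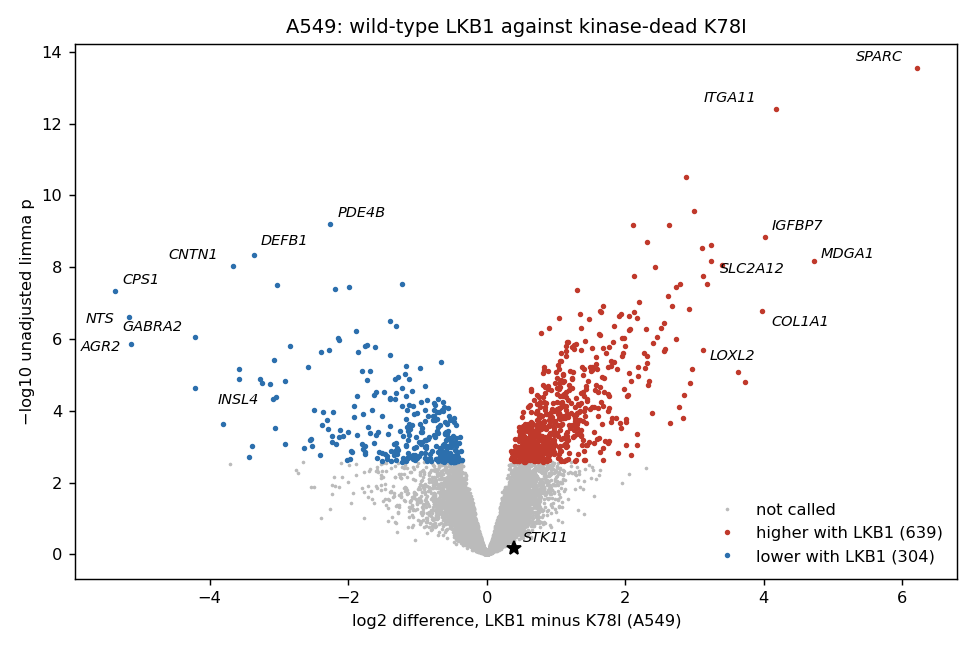
Each of 17958 genes by its log2 difference, LKB1 minus K78I in A549 (horizontal axis), and −log10 of the unadjusted limma p (vertical axis). Red points are the 639 genes called higher and blue points the 304 called lower at an adjusted p under 0.05, SPARC lies at 6.22 and CPS1 at −5.36, and the star marks STK11 at 0.40.

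The transcripts of the LKB1 complex and of most kinases it activates were not called. Of 5 measured members of the complex (STK11, STRADA, STRADB, CAB39 and CAB39L) 0 passed the test, with differences from −0.14 to 0.40. The 7 AMPK subunits had 0 calls by limma too, 1 without K78I replicate 2, with differences between −0.36 for PRKAG2 and 0.38 for the catalytic subunit PRKAA2. PRKAA2 had 9.75, 9.45 and 9.63 with LKB1 and 8.79, 9.81 and 9.10 with K78I, where replicate 2 stood above every LKB1 array, and it was called higher by 0.66 without that array (adjusted p = 0.0375).

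Among 11 AMPK-related substrate kinases 1 rose and 1 fell. NUAK1, a kinase tied to cell adhesion, had 7.77, 8.39 and 8.11 with LKB1 and 7.31, 6.82 and 7.05 with K78I and rose by 1.03 ± 0.22 (SE, adjusted p = 0.011). Its call was lost without LKB1 array 2 or 3 or K78I array 2 (0.0553, 0.0502 and 0.0513). SIK3, which phosphorylates CRTCs, had 7.90, 7.84 and 8.02 with LKB1 and 8.48, 9.48 and 8.47 with K78I and fell by 0.89 ± 0.21 (SE, adjusted p = 0.0206), a call lost without LKB1 replicate 1, 2 or 3 (0.0674, 0.0722 and 0.0568). Differences of the other 9 were −0.16 for SIK2, −0.74 for NUAK2, 0.17, −0.78, −0.14 and 0.21 for MARK1, MARK2, MARK3 and MARK4, −0.47 and 0.15 for BRSK1 and BRSK2, and −0.12 for SNRK. MARK2 was called without K78I replicate 1. Without K78I replicate 2 the list had 0 higher and 1 lower. Of the CRTC coactivators, CRTC1, CRTC2 and CRTC3 differed by 0.11, −0.08 and 0.22 and CREB1 by −0.21, and 0 of 7 in that list were called. CREB5 had the largest difference of the list, −2.21 (adjusted p = 0.0902).

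Targets of CREB and CRTCs, the genes downstream of the SIK branch, fell in part with LKB1. Of 30 measured members 12 fell, 0 rose and 18 did not pass, with a median of −1.38, beside 1.69% of all genes called lower and a median of −0.007 over all genes. In 20 of the 30 every LKB1 array lay below every K78I array, beside 10.4% of all genes. Without K78I replicate 2, 9 fell and the median was −0.92, and over the 9 fits that left out 1 array between 8 and 17 fell and 0 rose. The mean level of the list was 6.38, 6.08 and 6.11 on the LKB1 arrays, against 7.26, 8.63 and 7.38 with K78I, where replicate 2 was the highest. The list also read high on pBABE replicate 1, at 8.24, and these 2 arrays had the lowest cell cycle means of the A549 arrays, 8.59 and 9.07.

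Secreted peptides were among the fallen targets. NTS had 6.49, 4.78 and 5.63 with LKB1, against 9.95, 11.83 and 10.63 with K78I. INSL4, an insulin-like peptide known from placenta, had 4.54, 3.84 and 4.14 with LKB1, against 6.85, 9.19 and 7.21 with K78I, a fall of 3.57 ± 0.56 (SE, adjusted p = 0.0015). Both groups were apart for each peptide. EREG, a ligand of the EGF receptor, had 7.79, 8.43 and 7.52 with LKB1, against 10.13, 11.95 and 11.02 with K78I, and fell by 3.12 ± 0.50 (SE, adjusted p = 0.00187). Immediate-early and signalling genes also fell. RGS2, which shortens G-protein signals, fell by 2.50 ± 0.47 (SE, adjusted p = 0.00598) and AVPI1 by 2.31 ± 0.46 (SE, adjusted p = 0.00896). The AP-1 subunit FOS fell by 2.53 (adjusted p = 0.0202) and the nuclear receptor NR4A1 fell by 2.40 (adjusted p = 0.0381). FOS lost its call without LKB1 array 2 or 3 or K78I array 2 (0.0874, 0.102 and 0.0645). NR4A1 lost it without LKB1 array 1, 2 or 3, K78I array 2 or pBABE array 2 (0.106, 0.11, 0.101, 0.157 and 0.0515). NR4A2 (−2.18), NR4A3 (−2.13) and DUSP1 (−1.58) did not pass (adjusted p of 0.122, 0.125 and 0.0688).

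Phosphodiesterases, which break down cyclic AMP and some of which are CREB targets themselves, fell in part. Of 11 measured 6 fell, 0 rose and 5 did not pass, beside 1.69% of all genes called lower. Some of the fallen phosphodiesterases are also on the list of CREB and CRTC targets and were counted in both lists. Differences ran up to 0.70 for PDE8B (adjusted p = 0.0928), and the same count of 6 held without K78I replicate 2. PDE4B had 5.02, 4.90 and 4.99 with LKB1, against 7.14, 7.47 and 7.09 with K78I and 7.31, 7.04 and 7.08 with pBABE, so K78I replicate 2 was close to the other K78I arrays. It fell by 2.26 ± 0.16 (SE, adjusted p = 1.73e-06). PDE3A had 7.34, 5.93 and 6.82 with LKB1, against 9.14, 11.05 and 9.63 with K78I, and fell by 3.24 ± 0.52 (SE, adjusted p = 0.00181). PDE10A (−1.87), PDE8A (−1.12), PDE4D (−0.96) and PDE7A (−0.44) were the other called members. The call of PDE4D was lost without LKB1 replicate 3 (0.0568) and that of PDE7A without LKB1 replicate 2 or 3 (0.0863 and 0.0528).

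**Figure D3:**
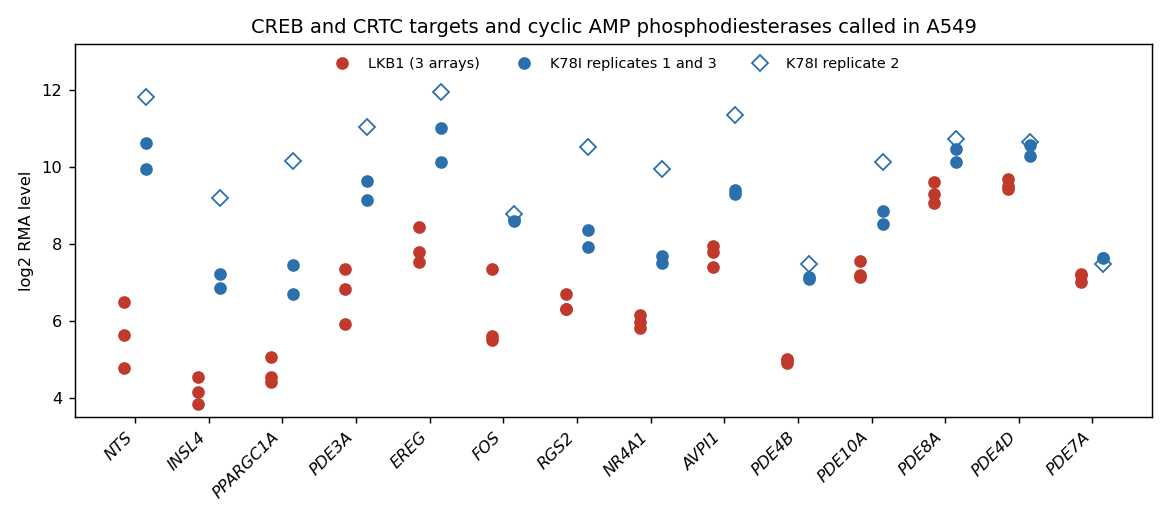
Log2 level on each array of the 14 CREB and CRTC targets and cyclic AMP phosphodiesterases called in A549, with LKB1 left and K78I right for each gene. All LKB1 points lie below the K78I points of their gene, and K78I replicate 2 (open diamonds) is the highest array for most genes but not for PDE7A. The genes were chosen by their calls on these same arrays, so this separation is a description. Over all genes, 10.4% were separated in this direction.

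CREB binds the palindrome TGACGTCA, and TGACG or CGTCA is its core. Promoters were read from RefSeq (GRCh38.p14), 250 bases before to 50 after each gene's start, for 244 of the 304 genes called lower, 509 of the 639 called higher and 13864 of the 17958 tested. The palindrome, searched on both strands, was in 13 promoters of genes called lower (5.33%), 5 of genes called higher (0.982%) and 370 of all (2.67%). Of the 13, AKIRIN1, C11orf24, CCDC169, CDIP1, CTU2, DNTTIP1, DUSP8, KCNF1 and RMDN3 lost their calls without K78I replicate 2 (0.0872 to 0.188). So did CDC42 of the 5 (0.126). Each of these also lost its call without other arrays. NOL4 lost its call without LKB1 array 2 or 3 or K78I array 3 (0.0716, 0.0817 and 0.0604). The shares were not computed again without K78I replicate 2. The core, which the palindrome contains, was in 38.5% of the promoters of genes called lower, 22.8% of those called higher and 29.8% of all. Stretches with the palindrome in capitals are shown for 4 of the 13 genes, picked after their values were seen, AVPI1 being also on the target list. AVPI1, IFRD1 and ST3GAL5 kept their calls when any 1 A549 array was left out, so the 4 do not represent the 13. The stretches are given 5′ to 3′ on the gene's strand and lie before the annotated start.
AVPI1, chr10:97687452-97687491, minus strand: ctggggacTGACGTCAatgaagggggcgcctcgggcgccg
IFRD1, chr7:112450392-112450431, plus strand: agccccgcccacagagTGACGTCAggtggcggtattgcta
ST3GAL5, chr2:85889028-85889067, minus strand: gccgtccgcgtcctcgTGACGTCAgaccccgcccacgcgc
DUSP8, chr11:1572366-1572405, minus strand: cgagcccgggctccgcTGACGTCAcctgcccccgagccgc
Several of the strongest target genes held the core alone, in capitals here.
NTS, chr12:85874045-85874084, plus strand: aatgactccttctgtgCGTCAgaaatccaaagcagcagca
INSL4, chr9:5231340-5231379, plus strand: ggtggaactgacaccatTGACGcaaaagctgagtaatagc
RGS2, chr1:192808841-192808880, plus strand: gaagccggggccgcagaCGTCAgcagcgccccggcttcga
FOS, chr14:75278747-75278786, plus strand: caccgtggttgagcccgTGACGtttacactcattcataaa
PPARGC1A, chr4:24473002-24473041, minus strand: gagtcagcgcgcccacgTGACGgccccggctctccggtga
IFRD1, a transcriptional coregulator, had 7.37, 7.43 and 7.19 with LKB1 and 7.96, 8.78 and 8.41 with K78I (−1.06, adjusted p = 0.00696). ST3GAL5, which makes the ganglioside GM3, had 7.18, 6.58 and 7.09 with LKB1 and 8.09, 8.36 and 8.07 with K78I (−1.22, adjusted p = 0.0023). DUSP8, a phosphatase of stress kinases, differed by −1.98, and its call was lost without LKB1 array 1, 2 or 3, K78I array 2 or pBABE array 2 (0.0674, 0.0905, 0.194, 0.144 and 0.0519). Of the target list itself 4 of 27 matched promoters held the palindrome and 14 the core. Among its 12 members called lower, 1 held the palindrome and 7 the core. The core was also in uncalled members with differences near 0, SST (0.10), CGA (0.07) and SYT4 (0.05). A match describes letters in this window and not binding.

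The composite element TGATGNAAT, which C/EBP and ATF4 dimers bind, was in 7 promoters of genes called lower (2.87%), 1 of genes called higher (0.196%) and 0.649% of all. Of the 7, RBP4 and SRPRB lost their calls without K78I replicate 2 (0.133 and 0.0595), and also without some LKB1 arrays. The gene of the calcium-binding protein S100P is shown because it had the largest fall of the 7, and that of the transcription factor EBF1 because it had the smallest adjusted p. Each is read as above, with the element, here on the opposite strand, in capitals.
S100P, chr4:6693739-6693778, plus strand: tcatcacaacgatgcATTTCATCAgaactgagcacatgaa
EBF1, chr5:159098082-159098121, minus strand: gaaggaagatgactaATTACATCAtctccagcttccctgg
S100P had 7.23, 5.53 and 6.53 with LKB1 and 8.63, 10.26 and 9.64 with K78I, a fall of 3.08 ± 0.54 (SE, adjusted p = 0.00374). For EBF1 the levels were 5.86, 5.22 and 5.56 with LKB1 and 7.26, 8.14 and 7.66 with K78I, a fall of 2.14 ± 0.27 (SE, adjusted p = 0.000264). The letters GGAATG, the core bound by TEAD factors, were in 10.4% of promoters of genes called higher, 9.84% of those called lower and 11.7% of all.

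Genes of the extracellular matrix rose in small subsets. List medians were 0.05 to 0.07 for matricellular proteins, collagen chains and collagen modification, and 0.31 for matrix proteases and inhibitors. Of 17 matricellular proteins, which modulate contacts between cells and matrix, 6 rose and 0 fell, beside 3.56% of all genes called higher, and without K78I replicate 2 the count was 4. Besides SPARC and IGFBP7 they were SPOCK1, TGFBI (1.11), CCN2 (1.33) and SPOCK3 (0.71), while THBS1 and the matricellular tenascin TNC did not pass (1.01 and −0.05). SPOCK1 had 6.92, 9.65 and 8.31 with LKB1 and 4.76, 4.35 and 4.58 with K78I, a wide spread among LKB1 arrays that still left the groups apart. CCN2 lost its call without LKB1 array 1, 2 or 3 or K78I array 1 or 2 (0.0878, 0.105, 0.114, 0.0657 and 0.103) and SPOCK3 without LKB1 array 1 or 3 or K78I array 1 or 2 (0.0839, 0.104, 0.0524 and 0.0787).

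Of 23 collagen chains 6 rose and 0 fell, and 5 rose without K78I replicate 2. COL1A1, the alpha-1 chain of type I collagen, had 10.02, 10.78 and 10.36 with LKB1, against 6.77, 5.59 and 6.86 with K78I. Its partner chain COL1A2 had 4.22, 4.45 and 4.37 with LKB1 and 4.43, 4.24 and 4.22 with K78I, a difference of 0.05 ± 0.10 (SE, adjusted p = 0.851), and COL3A1 differed by 0.01. The rise of type I collagen transcripts was thus measured for the alpha-1 chain alone. Basement membrane collagen rose in both chains of its common trimer, COL4A1 with 6.89, 8.35 and 7.71 with LKB1 and 5.37, 5.35 and 5.29 with K78I (2.31 ± 0.32, SE, adjusted p = 0.000535), and COL4A2 by 2.16 ± 0.24 (SE, adjusted p = 0.000106). COL5A1 (1.69), COL6A1 (0.98) and COL18A1 (0.84) completed the calls, the last lost without LKB1 array 2 or 3 or K78I array 2 or 3 (0.116, 0.143, 0.154 and 0.0588). COL4A3, COL5A2 and COL6A3 differed by 1.03, −0.26 and 0.06 and did not pass.

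Enzymes that modify collagen rose in 5 of 16 cases, with 0 lower and 4 higher without K78I replicate 2. LOXL2, which crosslinks collagen, had 9.12, 9.995 and 9.60 with LKB1 and 6.98, 5.71 and 6.68 with K78I, a rise of 3.12 ± 0.41 (SE, adjusted p = 0.000401). Its relative LOXL4 rose by 1.35 and the prolyl hydroxylase subunit P4HA3 by 1.41, while LOX and LOXL1 differed by −0.04 and −0.09. BMP1, which trims procollagen, rose by 0.84. P4HA2 rose by 0.71, a call lost without LKB1 array 1, 2 or 3 or K78I array 2 (0.107, 0.0774, 0.114 and 0.0895). Of 28 matrix proteases and their inhibitors 7 rose and 0 fell, 6 without K78I replicate 2 and 4 without LKB1 replicate 3. The membrane protease ADAM19 had 8.20, 9.65 and 8.91 with LKB1 and 6.20, 5.27 and 6.38 with K78I (2.96 ± 0.44, SE, adjusted p = 0.000968). Urokinase (PLAU) rose by 1.54, ADAMTS6 by 1.67, and the inhibitors TIMP2 and TIMP1 by 1.44 and 0.96. TIMP1 lost its call without LKB1 replicate 3 (0.0523). MMP7 (2.17) and ADAM12 (1.04) were the remaining 2. The call of MMP7 was lost without LKB1 array 1, 2 or 3 or K78I array 2 (0.0871, 0.0542, 0.0933 and 0.114), and that of ADAM12 without LKB1 array 2 or 3 or K78I array 2 or 3 (0.123, 0.129, 0.104 and 0.0532). MMP1, MMP2 and MMP9 differed by 0.01, 0.57 and 0.06.

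Fibroblasts, a cell type rich in these matrix genes, were checked by 9 markers, of which 0 were called, and 1 was called higher without LKB1 replicate 2. The marker mean was 3.97, 3.86 and 3.94 on the LKB1 arrays and 3.86, 3.86 and 3.78 on the K78I arrays, and the differences ran from −0.15 for DCN to 0.70 for PDGFRA (adjusted p = 0.111). LUM, at 0.21, was the 1 marker with every LKB1 array above every K78I array, beside 11.8% of all genes. Another 1 had every LKB1 array below every K78I array, beside 10.4% of all genes. The collagen chains among the markers, COL1A2, COL3A1 and COL6A3, differed by 0.05, 0.01 and 0.06. The part of other cells in the result was not tested. Of 4 leukocyte and 4 endothelial markers 0 were called. Of 6 epithelial markers CLDN4 was called higher and CDH1 lower, neither without K78I replicate 2, while EPCAM, KRT8, KRT18 and KRT19 differed by −0.44, −0.15, −0.09 and 0.14 and were not called.

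Integrins, the receptors for this matrix, had 7 of 18 higher and 1 lower, and 4 higher without K78I replicate 2 or without LKB1 replicate 1 or 3. ITGA11, which pairs with ITGB1 to bind collagen, had 7.77, 8.45 and 8.51 with LKB1 and 3.88, 4.23 and 4.09 with K78I, while ITGB1 differed by −0.24. The alpha-v subunit ITGAV and its partners ITGB3 and ITGB6 rose together. ITGAV had 12.04, 11.87 and 11.96 with LKB1 and 10.77, 10.26 and 11.01 with K78I (1.28 ± 0.24, SE, adjusted p = 0.00523). ITGB6 had 9.57, 9.55 and 9.63 with LKB1 and 7.10, 5.77 and 7.10 with K78I (2.93 ± 0.47, SE, adjusted p = 0.00178), and ITGB3 rose by 1.94 ± 0.21 (SE, adjusted p = 9.47e-05). A further alpha-v partner, ITGB5, moved the other way, with 9.995, 9.69 and 9.86 with LKB1 and 10.56, 10.63 and 10.91 with K78I (−0.85, adjusted p = 0.0196), a call lost without LKB1 array 2 or 3 or K78I array 3 (0.0805, 0.0714 and 0.0609). ITGB4 (1.26), ITGA2 (0.96) and ITGA3 (0.84) also rose. ITGB4 lost its call without LKB1 array 1 or 3 or K78I array 2 (0.0688, 0.0636 and 0.0648), ITGA2 without LKB1 array 1, 2 or 3 or K78I array 2 (0.0936, 0.081, 0.0985 and 0.14) and ITGA3 without LKB1 array 1, 2 or 3 or K78I array 2 or 3 (0.0625, 0.111, 0.0788, 0.0746 and 0.0576). Of 9 laminins only LAMB1 was called, lower by 0.71.

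TGF-beta, which alpha-v integrins release from its latent complex, had 6 of 26 pathway genes higher and 1 lower, and 3 higher without K78I replicate 1 or 2 or LKB1 replicate 3. LTBP2 and LTBP3, which tether latent TGF-beta to matrix, rose by 1.91 ± 0.21 and 1.56 ± 0.26 (SE), and the inhibitory SMAD7, a feedback target, by 1.07 ± 0.15 (SE). LTBP2 had 7.23, 8.06 and 7.55 with LKB1 and 5.75, 5.68 and 5.69 with K78I, with the groups well apart. The ligand TGFB2 (1.41), the receptor ACVR1 (0.87) and BAMBI (0.89) rose as well, and the activin subunit INHBB fell by 1.07. TGFB2 lost its call when any 1 of the 6 LKB1 and K78I arrays, or pBABE replicate 2, was left out (0.0518 to 0.137), ACVR1 without LKB1 array 1 or 3 or K78I array 1 or 2 (0.0576 to 0.101) and BAMBI without LKB1 array 2 or 3 or K78I array 1 or 2 (0.0837 to 0.157). Targets of YAP and TEAD, the effectors of the Hippo pathway, had 8 of 28 higher and 0 lower, but 4 higher after median centring and 2 without K78I replicate 2, whose list mean of 8.62 was above the 8.41, 8.39 and 8.36 of the LKB1 arrays. The count was 5 without K78I replicate 1, 4 without pBABE replicate 2, 2 without LKB1 replicate 1 or 2, and 1 without LKB1 replicate 3. RBMS3 (1.99) was their largest rise, and CCN1, ANKRD1 and AXL differed by −0.87, 0.57 and −0.53 without a call.

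Hexose transporters had 4 of 13 higher and 0 lower, and 3 higher without K78I replicate 2. SLC2A12 was followed by the fructose transporter SLC2A5, with 6.46, 5.80 and 6.43 with LKB1 and 4.62, 4.13 and 4.75 with K78I (1.73 ± 0.23, SE, adjusted p = 0.000466). The glucose transporter SLC2A1 had 11.88, 12.06 and 11.95 with LKB1 and 11.02, 10.51 and 10.91 with K78I (1.152 ± 0.16, SE, adjusted p = 0.000539). SLC2A3 had 11.10, 8.60 and 10.74 with LKB1 and 8.13, 7.96 and 8.32 with K78I, where LKB1 replicate 2 stood close to the K78I arrays, and its call was lost without LKB1 array 1 or 3 or K78I array 2 (0.124, 0.131 and 0.0866). Its near-identical paralog SLC2A14 differed by 1.64 (adjusted p = 0.0705), and the probe sets of both may read each other's transcript. Most glycolytic enzymes were not called. Of 27 hypoxia and glycolysis genes 3 rose, the neuronal enolase ENO2 (1.67), the histone demethylase KDM3A (0.73) and the mitophagy receptor BNIP3L (0.79), and 2 rose without K78I replicate 2 but 7 without K78I replicate 1. HK2, GAPDH, LDHA and PGK1 differed by −0.05, −0.01, 0.08 and 0.10. BNIP3L lost its call without LKB1 array 1 or 3 or K78I array 2 (0.0753, 0.0933 and 0.0882).

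Secretory and hepatic genes fell in part. In the urea cycle list CPS1 alone was called of 8, with OTC, ASS1, ASL and NAGS differing by −0.12, −0.31, −0.16 and 0.07. Of 27 hepatic secreted proteins 6 fell and 0 rose, 4 without K78I replicate 2 and 3 without LKB1 replicate 2 or 3. FGA, the fibrinogen alpha chain, had 4.97, 3.99 and 4.47 with LKB1 and 6.997, 10.01 and 7.85 with K78I, and its sister chains FGB and FGG differed by −2.54 and −2.76 without passing (adjusted p of 0.126 and 0.07). Vitronectin (VTN) fell by 2.91 and complement C3 by 2.39, with F5 (−1.87), ITIH2 (−1.55) and APOH (−1.45) behind them. F5 lost its call without LKB1 array 2 or 3 or K78I array 2 (0.0636 to 0.0783), ITIH2 without LKB1 array 2 or 3 or K78I array 3 (0.0979 to 0.141) and APOH without LKB1 array 2 or 3, K78I array 2 or 3 or pBABE array 2 or 3 (0.0514 to 0.163). Albumin (ALB) and transferrin (TF) differed by −0.03 and −0.18. Of 23 mucins and secretory genes AGR2, SLPI and TSPAN8 (−1.79) fell, 2 of them without K78I replicate 2, and 5 genes fell without K78I replicate 1 or without pBABE replicate 1 or 3. The mucin MUC5B had 4.85, 4.92 and 4.94 with LKB1 and 7.21, 10.90 and 7.73 with K78I, a difference of −3.71 that did not pass (adjusted p = 0.0555). TSPAN8 lost its call without LKB1 array 2 or 3 or K78I array 2 or 3 (0.0563 to 0.127). The lineage factors FOXA1, FOXA2, GATA6 and NKX2-1 differed by −0.05, −0.16, −0.12 and −0.06, and KLF5 was the 1 of 17 called (−1.04), a call lost without LKB1 array 2 or 3, K78I array 2 or 3 or pBABE array 2 (0.0519 to 0.172).

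Epithelial and mesenchymal genes showed no general switch in the calls. Of 25 epithelial genes 2 rose and 4 fell, and 1 and 1 without K78I replicate 2. MAL2, which sorts cargo to the apical membrane, had 4.49, 4.15 and 3.93 with LKB1 and 6.22, 8.003 and 7.56 with K78I (−3.07 ± 0.43, SE, adjusted p = 0.000656). E-cadherin (CDH1) had 10.34, 8.86 and 9.73 with LKB1 and 10.41, 10.94 and 10.97 with K78I, a fall of 1.13, with LKB1 replicate 1 near K78I replicate 1. CLDN1 (−0.97) and ESRP2 (−0.48) fell, and TJP1 (0.53) and CLDN4 (0.81) rose, the last 2 not after median centring. Calls were lost for CDH1 without LKB1 array 2 or 3, K78I array 2 or 3 or pBABE array 2 (0.0583 to 0.154), for CLDN1 without LKB1 array 1, 2 or 3 or K78I array 2 or 3 (0.0728 to 0.177), for ESRP2 without LKB1 array 2 or 3 or K78I array 2 (0.0535 to 0.0817), for TJP1 without LKB1 replicate 1 (0.0503) and for CLDN4 when any 1 of the 9 arrays was left out (0.0538 to 0.173). Of 13 mesenchymal genes and their regulators only vimentin (VIM) rose, with 11.78, 11.91 and 11.76 with LKB1 and 11.33, 10.89 and 11.05 with K78I (0.73 ± 0.12, SE, adjusted p = 0.00301). ZEB1, SNAI1 and TWIST1 differed by 0.10, −0.38 and 0.02, SNAI2 by 1.96 (adjusted p = 0.11) and FN1 by 1.08. Of 19 neuronal adhesion genes MDGA1, NRCAM (2.85), LRRN2 (1.37) and NRXN3 (0.83) rose and CNTN1 and NLGN1 (−1.80) fell, and these counts of 4 and 2 were the same without K78I replicate 2.

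**Figure D4:**
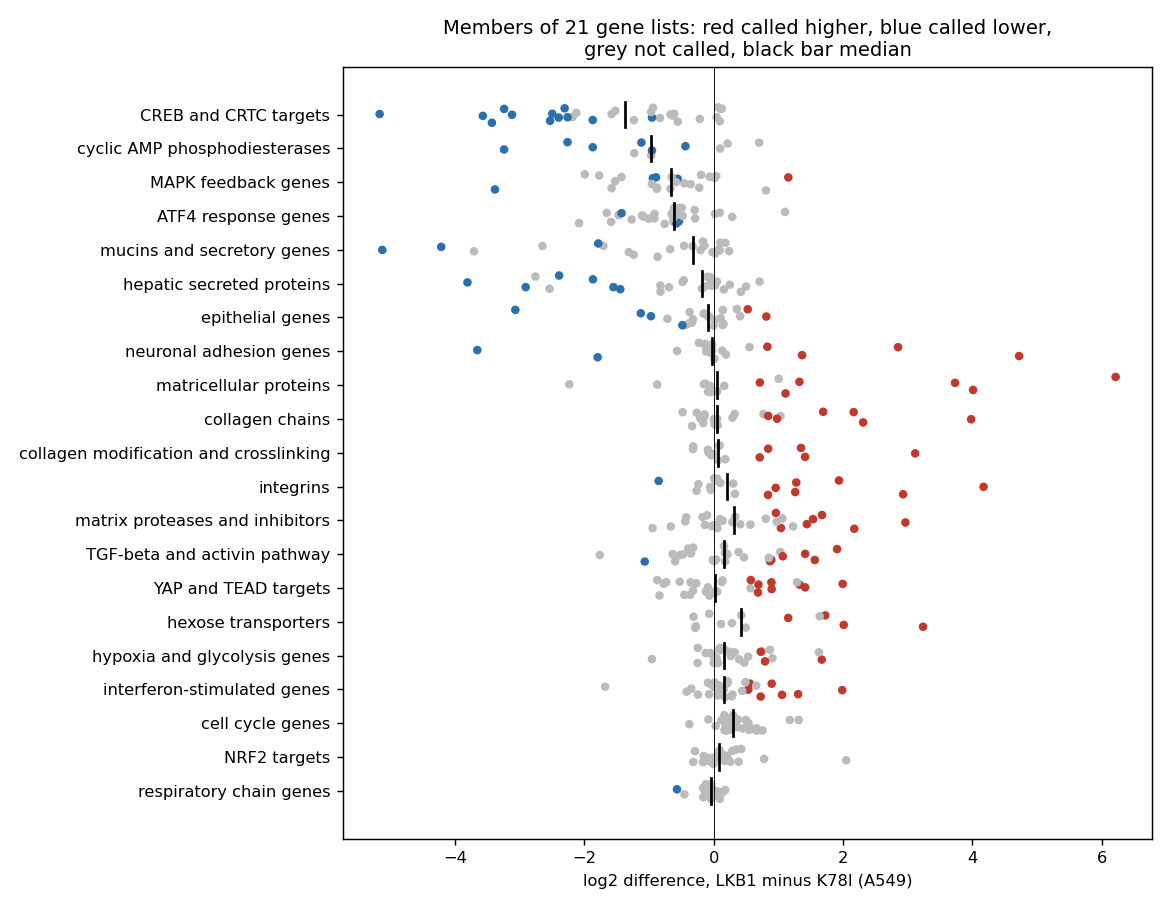
Log2 difference, LKB1 minus K78I in A549, of every measured member of 21 gene lists, each list on its own line. Red and blue points passed the test as higher and lower, grey points did not, and the black bar is the list's median. It lies at −1.38 for CREB and CRTC targets, and at 0.05 to 0.07 for matricellular proteins, collagen chains and collagen modification. It lies at 0.20 for integrins and 0.31 for matrix proteases and inhibitors.

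MAPK feedback genes, induced when ERK is active, had 4 of 24 lower and 1 higher and a median of −0.66, and 1 lower and 0 higher without K78I replicate 2, with a median of −0.45. Without K78I replicate 1 there were 8 lower, without K78I replicate 3 there were 2, and without LKB1 replicate 2 or 3 there was 1. ETV4 had 7.67, 7.63 and 7.56 with LKB1 and 8.44, 8.50 and 8.61 with K78I, a fall of 0.89 ± 0.15 (SE, adjusted p = 0.00204) that did not rest on replicate 2. SPRY4 (−0.94), DUSP2 (−0.56) and EGR1 fell and EPHA4 rose (1.154), and each of these 4 lost its call without K78I replicate 2 (0.117, 0.0748, 0.123 and 0.124). SPRY4 also lost it without LKB1 array 2 or 3 or K78I array 3 (0.0776 to 0.125), and DUSP2, EPHA4 and EGR1 without LKB1 replicate 1, 2 or 3 (0.0542 to 0.119), EGR1 without K78I replicate 3 as well (0.0612). DUSP4 (−1.99), DUSP5 (−1.77) and DUSP6 (−1.52) did not pass. Of 13 EGF ligands and receptors EREG alone was called, joined without K78I replicate 2 by NRG4 (−0.70 with it, −1.08 without), and EGFR and ERBB2 differed by −0.01 and 0.35.

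Genes of the ATF4 response, induced by amino acid and endoplasmic reticulum stress, had 3 of 30 lower and 0 higher, the same count without K78I replicate 2. The count was 13 without K78I replicate 1, 5 without pBABE replicate 1 and 2 without LKB1 replicate 2 or 3, and 1 was higher without K78I replicate 1 or 3. The transporter subunits SLC7A5 and SLC3A2, which bring in large neutral amino acids as a pair, fell by 0.58 ± 0.12 and 0.54 ± 0.11 (SE). SLC7A5 had 11.66, 11.74 and 11.68 with LKB1 and 12.09, 12.43 and 12.29 with K78I. CEBPB fell by 1.43, a call lost without LKB1 array 2 or 3 or K78I array 2 (0.0691 to 0.0761). TRIB3, ASNS and DDIT3 differed by −2.08, −1.01 and −1.66 and did not pass.

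Other stress, immune and growth lists held few calls, apart from the interferon-stimulated genes. Of 32 interferon-stimulated genes 7 rose (21.9%) and 0 fell, beside 3.56% of all genes called higher. The count of rises was 5 without K78I replicate 2, 4 without LKB1 replicate 1 and 3 without LKB1 replicate 3. SAMD9 led them, with 7.27, 7.58 and 7.46 with LKB1 and 5.51, 5.04 and 5.80 with K78I (1.99 ± 0.33, SE, adjusted p = 0.00238). SAMD9L (1.31), PARP9 (1.06), IFIT1 (0.90), PARP14 (0.73), IFIT5 (0.56) and the RNA sensor RIGI (0.54) were the others. MX1, ISG15 and IFI27 differed by 0.02, 0.08 and −0.04. Calls were lost for SAMD9L without LKB1 replicate 1 or 3 (0.0621 and 0.0726), RIGI without LKB1 replicate 3 (0.0794), IFIT1 without LKB1 array 1 or 3 or K78I array 2 (0.0677 to 0.09) and IFIT5 without LKB1 array 1, 2 or 3 or K78I array 1 or 2 (0.0549 to 0.134). Of 17 genes of MHC class I presentation the trimming peptidase ERAP2 alone rose (0.98). Of 23 p53 targets TP53I3 rose by 1.76 ± 0.26 (SE), while CDKN1A and MDM2 differed by 0.14 and −0.09, and 4 rose without K78I replicate 1. The cholesterol carrier NPC2 was the 1 called of 29 lysosome and autophagy genes, with 10.99, 11.01 and 11.005 with LKB1 and 9.82, 9.15 and 9.96 with K78I (1.36 ± 0.18, SE). The single calls among p53 targets (4.35%) and lysosome and autophagy genes (3.45%) were near the share of all genes called higher.

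Of 23 sterol and fatty acid genes HMGCS1 and SC5D fell (−1.30 and −0.46), 1 of them without K78I replicate 2, HMGCS1 losing its call without LKB1 replicate 1, 2 or 3 (0.0564 to 0.0906) and SC5D without LKB1 replicate 2 or 3, any K78I array or pBABE replicate 2 or 3 (0.0565 to 0.184). The median of this list was 0.14, and without K78I replicate 1 its calls were 3 higher and 1 lower. Of 25 respiratory chain genes CYC1 fell (−0.57), a call lost without LKB1 array 1 or 2 or K78I array 2 or 3 (0.0587 to 0.133). Among 27 NRF2 targets 0 were called, 1 was lower without K78I replicate 2 (SRXN1, −0.45) and 2 were higher without K78I replicate 1, with NQO1 at 0.07 and HMOX1 at 2.05 (adjusted p = 0.0805). The cell cycle list had 0 of 37 called and a median of 0.29, which was 0.05 without K78I replicate 2, and MKI67 and CDK1 differed by 0.33 and 0.20. Of 16 IGF-binding and insulin signalling genes IGFBP7 alone was called.

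The empty-vector arrays show where the K78I cells stood. Between K78I and pBABE limma called 0 of 17958 genes, with 472 at an unadjusted p under 0.05. Both groups hold an array whose STK11 goes against its label, and without these 2 arrays 35 genes were called. LKB1 against pBABE gave 987 calls (5.5%), 678 higher (3.78%) and 309 lower (1.72%), from the same LKB1 arrays. SPARC differed by 6.09 between LKB1 and pBABE and by −0.13 between K78I and pBABE, CPS1 by −5.37 and −0.01, ITGA11 by 4.05 and −0.12, and PDE4B by −2.18 and 0.08. EREG differed by −2.23 between LKB1 and pBABE and by 0.89 between K78I and pBABE, and MMP7 by 3.05 and 0.88. A p over the threshold between K78I and pBABE does not show that these groups were alike.

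H2122 cells answered with a partly different set of genes. There LKB1 against K78I gave 698 calls (3.89%), 535 higher (2.98%) and 163 lower (0.908%), and 132 of the 943 genes called in A549 were called in the same direction and 9 in the opposite one. A direct test of the difference between lines called 297 genes (1.65%), 130 with a higher difference in A549 (0.724%) and 167 with a lower one (0.93%), and 165 of them were among the 943. Of the H2122 arrays 3 carry a source name that gives another construct than their title. The calls within H2122 follow the titles and were not examined without these 3 arrays. Without these 3 arrays 95 genes were called between lines, and 220 without A549 K78I replicate 2. SLC2A12 rose in H2122 by 2.14, ITGB6 by 2.37, ADAM19 by 2.60, LTBP2 by 2.54, NPC2 by 1.32 and PLAU by 1.82, and none of these 6 was called between lines. SPARC, COL1A1 and FAT3 differed in H2122 by −0.02, 0.04 and −0.06, and PDE3A by −2.13. NUAK2 was higher with LKB1 in H2122 (1.65) and differed by −0.74 in A549. VSIG1 fell by 3.02 in A549, with 4.89, 4.02 and 4.20 on LKB1 arrays against 7.20, 7.35 and 7.63 on K78I arrays, and rose by 1.75 in H2122.

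**Figure D5:**
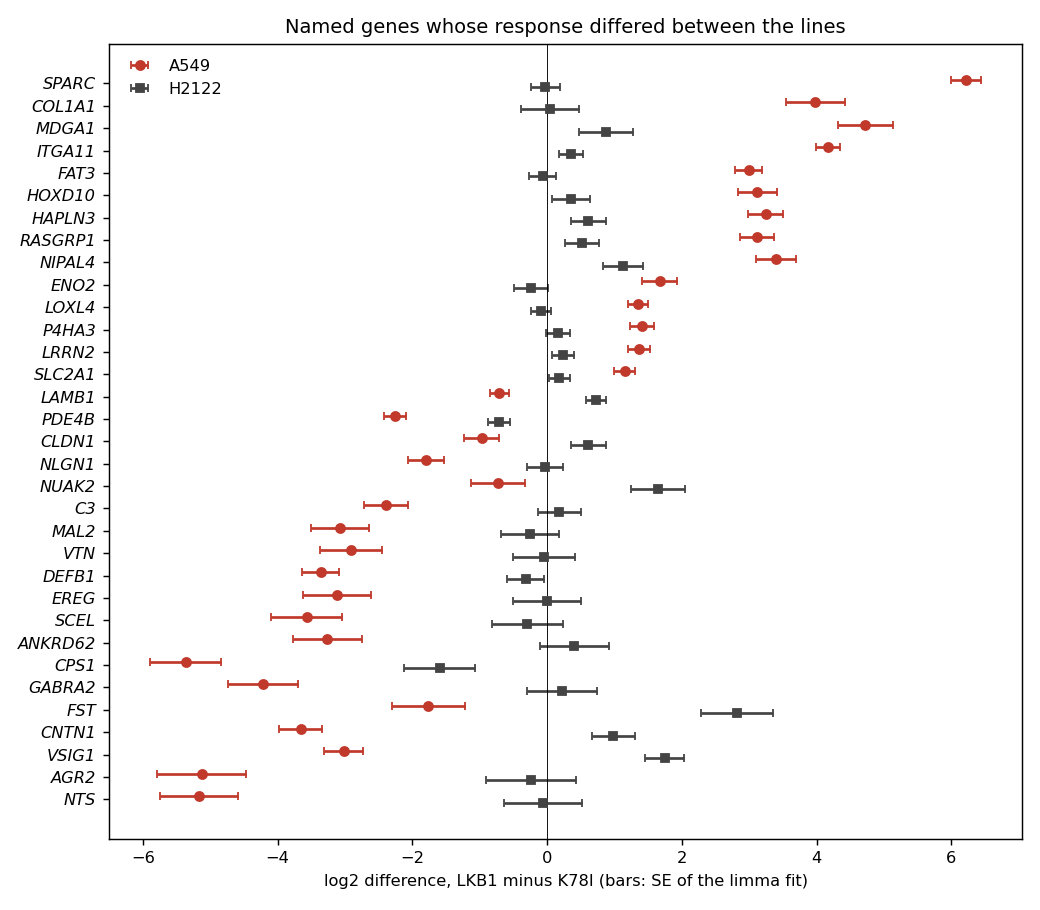
Log2 difference, LKB1 minus K78I, in A549 (red circles) and H2122 (grey squares), with SE bars from the fit. Shown are the 33 genes picked by the rule for named genes that limma called between lines. SPARC lies at 6.22 in A549 and −0.02 in H2122, and VSIG1, FST, NUAK2, CLDN1, CNTN1 and LAMB1 are among those on opposite sides of 0.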

How the data were processed

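RNA of 17 samples (130 ng each) was measured on Affymetrix arrays, per the labels' protocols. The deposited table holds log2 levels per probe set, which the authors computed by RMA (Affymetrix Expression Console 1.1), according to the submitters' processing notes. Array medians lay between 5.62 and 5.73. RMA makes distributions alike, so a shift of most genes would not show, and levels of different probe sets were not compared. Of 33297 probe sets 19181 have 1 gene symbol, 2055 have several and 12061 are unnamed here. Where a gene had more than 1 probe set (895 genes), the brightest on average was kept, which left 17958 genes. The number of arrays limits the precision.

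Groups follow the titles. With limma 3.58.1 in R 4.3.3, 6 groups were fitted over all 17 arrays (11 residual degrees of freedom, prior 3.8), so groups share each gene's spread, and p-values were adjusted by Benjamini-Hochberg over 17958 genes (threshold 0.05). In data simulated on these genes for LKB1 against K78I, shifts of 0.5, 1 and 2 were called in 7.46%, 71.6% and 97.0% of 67, 67 and 66 genes, 7.87% of 127 calls were false, and 0 calls arose without shifts. Each gene was simulated on its own, with the same spread on every array. The simulation therefore held no outlying array such as K78I replicate 2 and no variation shared by genes.

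The comparison, the 35 gene lists and the rule for named genes were chosen with earlier results of these data known, so lists carry no test of their own. The rule takes STK11, SPARC, CPS1 and SLC2A12, the 14 largest rises and 14 largest falls among called genes whose LKB1 and K78I arrays do not overlap, up to 5 called members of each list by adjusted p, members of the LKB1 complex and substrate kinase lists, the 5 most positive and 5 most negative called differences between lines, and uncalled list members with their values. Further called list members, and genes of the promoter search, were picked after their values were seen. Same-numbered LKB1 and K78I arrays did not deviate together (correlations of −0.22, −0.03 and 0.12), so no pairing was used. Alternatives left out each A549 array in turn, the arrays whose STK11 goes against the label (added after the data had been seen, as were the pBABE arrays), the H2122 arrays with conflicting labels, or dim genes, or changed the scaling, grouping, weights, prior, probe-set rule or arrays fitted. Figures used matplotlib 3.10.9.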

Additional observations from a re-analysis of the deposited data

Results flagged for a closer look

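For 33 genes picked by the rule for named genes, the effect of wild-type LKB1 over K78I differed between A549 and H2122 by a test of the difference itself (limma interaction term over 17 arrays, adjusted p from 7.25e-08 for SPARC to 0.0491 for NUAK2). Some of the 33 were picked by this same test. Other genes of this report, ADORA2B and CXCL5 among them, were also called by it. All values here are differences on the log2 scale, and a difference between lines is the A549 effect minus the H2122 effect.

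For 4 of these genes the H2122 effect was called and had the opposite sign to that in A549. VSIG1, an adhesion protein of the immunoglobulin family, fell by 3.02 in A549 and rose by 1.75 in H2122 (−4.77 between lines). LAMB1, a laminin beta chain, fell by 0.71 in A549 and rose by 0.72 in H2122 (−1.44). FST, the secreted activin antagonist follistatin, rose by 2.82 in H2122, while its A549 difference of −1.76 did not pass (limma adjusted p = 0.0761), and the lines differed by −4.58. NUAK2, a kinase that LKB1 activates, rose by 1.65 in H2122, while its A549 difference of −0.74 did not pass (limma adjusted p = 0.34), and the lines differed by −2.38.

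Among the remaining genes with a more negative effect in A549, the secreted and secretory proteins were NTS (−5.10), AGR2 (−4.89), EREG (−3.12), DEFB1 (−3.04), VTN (−2.86) and C3 (−2.57). The first 2 had H2122 effects of −0.07 and −0.24, neither called. Genes of the cell surface and of cell contacts were CNTN1 (−4.64), GABRA2 (−4.43), MAL2 (−2.81), NLGN1 (−1.77) and CLDN1 (−1.58). The others were CPS1 (−3.77), ANKRD62 (−3.67), SCEL (−3.27) and PDE4B (−1.55). PDE4B was called lower in both lines, by −2.26 in A549 and −0.71 in H2122.

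A more positive effect in A549 was measured for matrix genes and their modifiers, SPARC (6.24), COL1A1 (3.94), HAPLN3 (2.63), LOXL4 (1.44) and P4HA3 (1.25). Surface and adhesion genes were MDGA1 (3.84), ITGA11 (3.81), FAT3 (3.05) and LRRN2 (1.13). The others were HOXD10 (2.77), RASGRP1 (2.60), NIPAL4 (2.27), ENO2 (1.91) and the glucose transporter SLC2A1 (0.97). SPARC had an H2122 effect of −0.02 beside 6.22 in A549, and NIPAL4 was called higher in both lines, by 3.39 and 1.12.

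When the 3 H2122 arrays with conflicting labels were left out, 18 of the 33 no longer passed (adjusted p from 0.0521 for NTS to 0.248 for NUAK2). Leaving out 1 A549 array ended the call of 13 genes, ANKRD62, CLDN1, CPS1, ENO2, EREG, LRRN2, MAL2, NLGN1, NUAK2, P4HA3, SCEL, SLC2A1 and VTN. Without LKB1 replicate 1 it ended for CLDN1, EREG, LRRN2, NUAK2 and SLC2A1 (0.0511 for LRRN2 to 0.0902 for NUAK2). Without LKB1 replicate 2 it ended for all 13 except ENO2 and LRRN2 (0.0522 for EREG to 0.101 for SLC2A1), and without LKB1 replicate 3 for all 13 except P4HA3 (0.051 for CPS1 to 0.121 for NUAK2). K78I replicate 2 decided CLDN1, EREG, MAL2, NLGN1, P4HA3, SCEL, SLC2A1 and VTN (up to 0.0812 for VTN), and K78I replicate 3 decided CLDN1, EREG, MAL2, NUAK2, SCEL, SLC2A1 and VTN (0.0551 for NUAK2 to 0.0697 for CLDN1). The pBABE arrays enter only the spread estimate. Leaving out replicate 1 ended the call of SLC2A1 (0.0531), leaving out replicate 2 that of NUAK2, SCEL and VTN (0.0716, 0.0581 and 0.0524), and leaving out replicate 3 that of CLDN1 and NUAK2 (0.0501 and 0.0514).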

How the results depend on the processing

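The count of 943 genes (LKB1 against K78I) was 407 with the 9 A549 arrays alone, 265 with only the 6 arrays compared, 1930 with array weights, 538 with H2122 arrays grouped by source name, and 421 to 1625 when 1 A549 array was left out. The 987 genes of LKB1 against pBABE became 548, 3829 and 633 with A549 arrays alone, weights and source names, 1803 without the 2 arrays whose STK11 goes against the label, and 505 to 1520 without 1 array. K78I against pBABE gave 35 calls without those 2 arrays and 0 to 2 without 1 array. The 297 genes that differed between lines became 1746 with weights, 95 without the 3 H2122 arrays with conflicting labels, 90 by source name, and 123 to 518 without 1 array. The STK11 difference turned to −0.718 without the 2 arrays (adjusted p = 0.0714) and −0.497 with weights, and ranged from −0.718 to 0.982 without 1 array. Uncalled values that changed sign were STRADA (−0.034 with weights), CAB39 (−0.014 after centring, and −0.024 to 0.167 without 1 array), CAB39L (0.115 without the 2 arrays, 0.046 with weights, and −0.318 to 0.115 without 1 array), PRKAG3 (−0.0055 to 0.136 without 1 array), SIK2 (0.019 without the 2 arrays, 0.066 with weights, and −0.327 to 0.019 without 1 array) and SNRK (0.035 with weights). The cause was not tested. With the replicate number as a block the counts were 952 and, between lines, 271, and 104 of the 107 named called genes kept their call. Over all alternatives run, 45 of these 107 kept their call, 0 changed sign, and 34 lost it when some array was left out. The difference between lines could not be fitted with A549 arrays alone. Leaving out pBABE arrays, or the 2 arrays with STK11 against the label, was chosen after seeing the data. After median centring 494 genes were higher and 396 lower.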

Other observations

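The genes in these paragraphs were chosen after their values were seen. Of 4 measured RASGRP genes, which encode Ras activators, 2 rose and 0 fell, RASGRP1 by 3.11 and RASGRP3 by 1.36, beside 3.56% of all genes called higher. PDGFB, a growth factor for mesenchymal cells, had 7.35, 7.91 and 7.79 with LKB1 and 5.09, 4.82 and 5.24 with K78I (limma adjusted p = 1.73e-06).

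Of 9 measured HOXD genes, which encode homeobox factors of body patterning, 3 rose and 0 fell, beside 3.56% of all genes called higher. HOXD10 rose by 3.12 and HOXD11 by 1.31, while HOXD9, at 0.52, lost its call without LKB1 replicate 3 (adjusted p = 0.112) and when K78I replicate 3 was left out (0.0676). Of 13 CXCL chemokine genes 2 fell and 0 rose, beside 1.69% of all genes called lower. CXCL2 fell by 3.04 and CXCL5 fell by 2.28. Receptor genes with lower levels included CALCR (−1.68, limma adjusted p = 0.00104) and ADORA2B (−1.39, 0.000124). NPY1R (−1.80) lost its call without LKB1 replicate 2 or 3 (0.0791 and 0.0564), and without K78I replicate 2 or 3 (0.0983 and 0.055). NPY5R (−2.08) lost it without LKB1 replicate 2 or 3 (0.0792 and 0.0834) and without K78I replicate 2 (0.0816).

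A guidance ligand gene and the microRNA gene inside it were both higher. SLIT3 had 9.93, 9.75 and 9.86 with LKB1, 7.71, 6.81 and 8.04 with K78I, and 6.47, 6.48 and 8.14 with pBABE, and every LKB1 array lay above the others. MIR218-2, which lies within SLIT3, had 6.65, 5.97 and 6.46 with LKB1, 4.82, 4.45 and 4.76 with K78I, and 4.66, 4.36 and 4.80 with pBABE. The differences from K78I were 2.32 ± 0.38 for SLIT3 and 1.68 ± 0.18 for MIR218-2 (SE, limma adjusted p = 0.00194 and 6.81e-05). MIR218-1 within SLIT2 and SLIT2 itself differed by −0.28 and −0.09 and were not called. These probe sets read the precursor or host transcript, and the mature microRNA was not measured. Both genes encode the same mature miR-218-5p (RefSeq, GRCh38.p14; chr5:168768211-168768231, minus strand, and chr4:20528299-20528319, plus strand), shown with its seed, bases 2 to 8, in capitals.
miR-218-5p: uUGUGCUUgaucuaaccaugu
CPS1-IT1, within the CPS1 gene, differed by −2.52, and lost its call without LKB1 replicate 1, 2 or 3 (adjusted p = 0.0894, 0.0778 and 0.0728) and without K78I replicate 2 (0.111).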
